A study of Drosophila melanogaster with 12 samples.

Results

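Juvenile hormone is a sesquiterpenoid that insects make in the corpora allata, a pair of small endocrine glands, from farnesyl diphosphate of the mevalonate pathway. The methyltransferase jhamt acts in the last steps of synthesis, esterases cleave the methyl ester of the hormone and epoxide hydrolases open its epoxide ring. In Drosophila the hormone binds the paired receptors Met and gce, which induce the zinc finger transcription factor Kr-h1. In adult males it is known for its part in accessory gland function and courtship. The genes described here are the epoxide hydrolases Jheh1, Jheh2 and Jheh3, the esterase Jhe and its adjacent duplicate Jhedup, jhamt, Met, gce and Kr-h1. They were found on the array by their current or older symbol, among probe sets that the platform annotation assigns to a single gene, and of several probe sets of a gene the one brightest on average was used. Of the 9 genes 7 were measured, out of 11982 named genes in all. Jheh1 and Jheh3 matched no such probe set and were not analysed here. The 7 genes had 8 probe sets, of which gce had 2.

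RNA of whole wild-type Drosophila melanogaster males, 8 flies per sample, was measured on 12 Affymetrix arrays in 4 groups of 3. The first group was exposed to sucrose for 24 hours and the second, for as long, to methylphenidate, a stimulant drug and inhibitor of dopamine reuptake. The F1 groups were sons of a cross in which both parents had sucrose, and sons of mothers given methylphenidate and fathers given sucrose. Neither the age of the flies nor how long the parents were exposed is given in the sources used here, and the labels give no treatment of the F1 males themselves. The series' design text describes every F1 sample as coming from the cross with methylphenidate-exposed mothers; the grouping here follows the sample labels, which name both crosses.

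Values are log2 signals per probe set. Between 36.8% and 38.8% of the probe sets on each array lay under 0.5, close to the floor, where differences are understated. The array median was lowest for replicate 3 of the sons of sucrose parents, at 1.37, and was 1.49 to 1.57 for the other 11. Markers of male tissues were present on all 12 arrays. The mean over 8 testis markers was 6.10 to 6.20 in sucrose-fed males and 5.84 to 5.99 in methylphenidate-fed males. It was 5.66 to 5.83 in sons of sucrose parents and 5.76 to 5.81 in sons of exposed mothers. The mean over 5 accessory gland markers was 9.34 to 9.42, 9.08 to 9.36, 9.62 to 9.67 and 9.68 to 9.70 in the same order. Of 8 female markers measured, 5 had a mean under 0.5, among them the yolk protein genes Yp1 and Yp2. The yolk protein gene Yp3 of the same list had group means of 1.80 in sucrose-fed males and 1.70 in methylphenidate-fed males. It was at 3.19 in sons of sucrose parents and at 3.18 in sons of exposed mothers. The mean over 7 adult midgut markers was 6.23 to 6.98 in sucrose-fed males, 5.25 to 5.89 in methylphenidate-fed males, 7.65 to 7.84 in sons of sucrose parents and 7.40 to 7.64 in sons of exposed mothers. The mean over 8 fat body markers was 6.49 to 6.68, 6.55 to 7.12, 6.98 to 7.31 and 7.41 to 7.58 in the same order. Single markers differed in direction: between sucrose-fed males and sons of sucrose parents the group mean of Fbp1 went from 0.39 to 2.74 and that of Lsp2 from 6.95 to 8.34, but that of Lsd-1 from 6.88 to 5.99 and that of FASN1 from 9.10 to 8.78. In the midgut list LManII went from 5.65 with sucrose to 6.25 with methylphenidate, while the other 6 measured markers had lower means with the drug. Nothing in the labels tells whether replicates are separate cultures, so the p-values cover only the spread among these samples, which may be technical, and 3 arrays per group limit the precision.

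The first comparison set methylphenidate-fed males against sucrose-fed males. Jheh2 rose 3.85-fold and Jhedup 1.46-fold, and the other 5 genes did not pass the threshold, a limma Benjamini-Hochberg adjusted p under 0.05 over all 18769 probe sets. So 2 of 7 genes were higher and none lower, where 2.38% of all probe sets were higher and 0.97% lower. The median log2 difference of the 7 genes was 0.19, against -0.02 over all probe sets. This median is the value of gce, which did not pass and whose signal lay close to the floor. For the esterase Jhe, the synthetic enzyme, both receptors and their target Kr-h1 the 95% intervals included 0.

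Jheh2 encodes an epoxide hydrolase related to the microsomal epoxide hydrolases of mammals, which also act on foreign compounds. Its log2 signal was 6.23, 6.21 and 6.28 in the 3 samples of sucrose-fed males and 7.69, 8.50 and 8.36 in those of methylphenidate-fed males. It was 6.42, 6.41 and 6.35 in sons of sucrose parents and 6.27, 6.40 and 6.40 in sons of exposed mothers. The 3 methylphenidate-fed samples stood above the other 9, and the other 3 groups lay within 6.21 to 6.42.

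In exposed males the mean of Jheh2 was 8.18 ± 0.43 (SD, n = 3) with the drug and 6.24 ± 0.04 (SD, n = 3) with sucrose. The log2 difference was 1.94 ± 0.15 (SE, 95% interval 1.63 to 2.26; limma adjusted p = 1.71e-06), the 31st largest increase on the array. The groups did not overlap, which held for 2 of the 7 genes in the upward direction and for 9.28% of all probe sets. The size of the rise differed between samples: over the sucrose mean it was 2.74-fold in replicate 1, 4.78-fold in replicate 2 and 4.34-fold in replicate 3. In whole flies, more cells of an expressing type and more RNA per cell cannot be told apart. The part of the lower midgut and testis marker levels in the same samples was not tested.

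Jhedup lies next to Jhe, and its product is known in Drosophila as an antennal esterase that degrades food odorants. Its log2 signal was 1.96, 1.74 and 1.96 with sucrose and 2.21, 2.33 and 2.75 with methylphenidate. In the F1 males it was 1.73, 1.76 and 1.74 for sucrose parents and 1.96, 1.72 and 1.73 for exposed mothers. Each methylphenidate-fed sample was above every other sample. The means were 2.43 ± 0.28 and 1.88 ± 0.13 (SD, n = 3 each), a log2 difference of 0.55 ± 0.12 (SE, 95% interval 0.29 to 0.81; limma adjusted p = 0.0221).

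The call of Jhedup depended on the fit. Leaving out replicate 3 of the drug-fed males gave a log2 difference of 0.39 (limma adjusted p = 0.0667), and leaving out replicate 2 of the sucrose controls gave 0.47 (adjusted p = 0.088). A fit of the 6 exposed-male arrays alone gave an adjusted p of 0.0921. The GAPDH control, whose 3′ probe set reads above its 5′ probe set by more where RNA is less intact, differed between these groups. This 3′ excess was 1.62 ± 0.09 under sucrose and 1.504 ± 0.003 under the drug (SD, n = 3 each; two-sided exact permutation p = 0.1, the smallest that 3 against 3 allows). With the 3′ excess as a covariate Jhedup gave 0.50 with a limma adjusted p of 0.362, and Jheh2 gave 1.90 with an adjusted p of 0.000441.

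Jhe, the juvenile hormone esterase proper, did not pass. Its log2 signal was 1.66, 2.01 and 1.62 with sucrose and 2.02, 1.87 and 1.70 with methylphenidate, so that the groups overlapped. The log2 difference was 0.10 ± 0.15 (SE, 95% interval -0.22 to 0.43; limma adjusted p = 0.842). A difference between Jhe and Jhedup in their response was not tested.

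**Figure D1:**
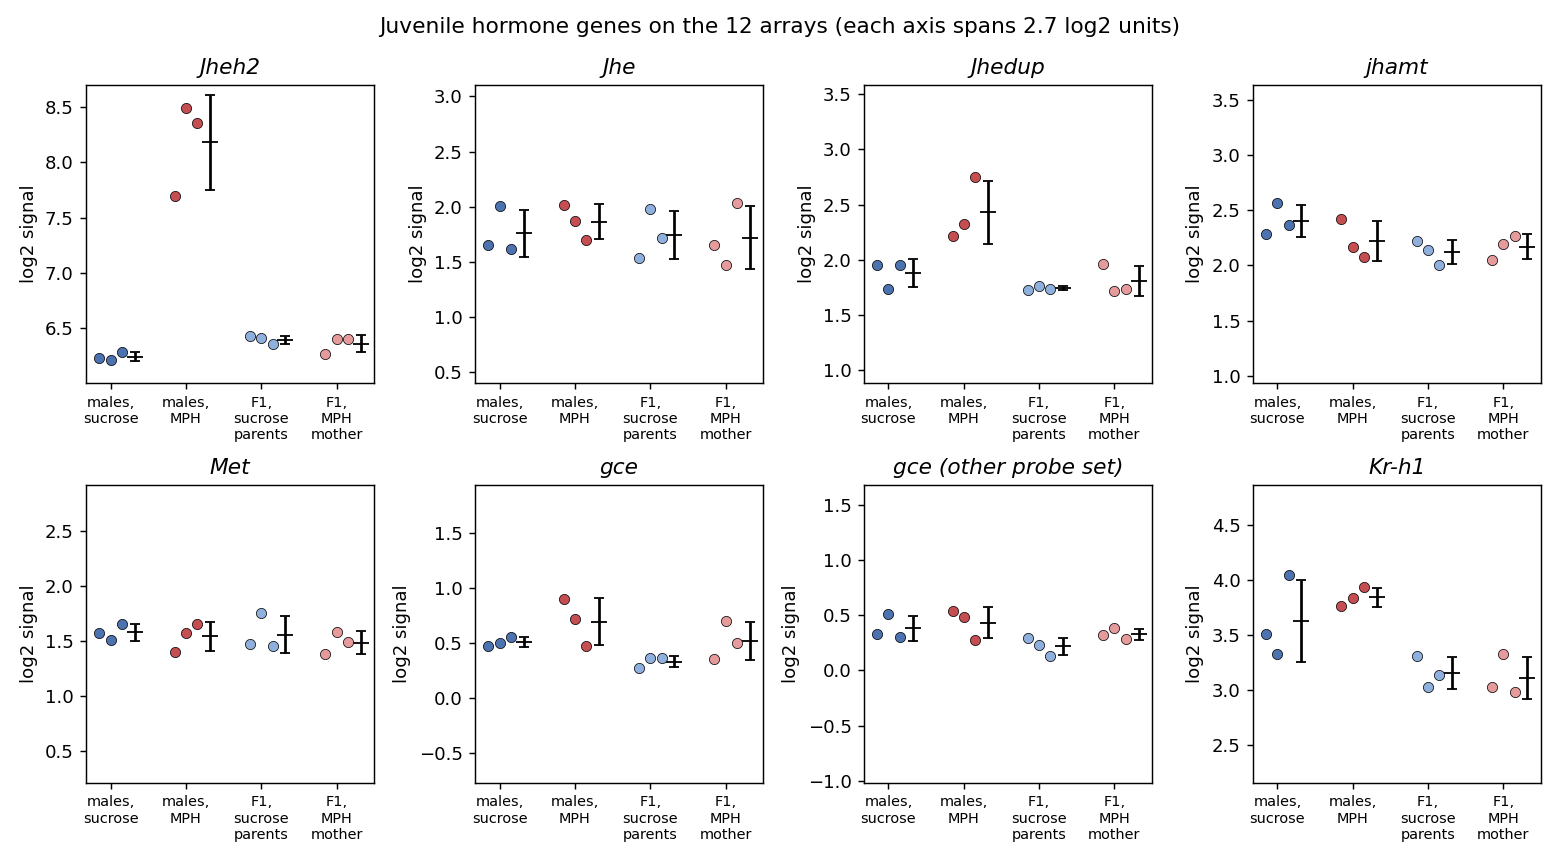
Log2 signal (vertical axis, spanning the same width in every panel) of the 7 genes, with both probe sets of gce, on the 12 arrays by group; MPH is methylphenidate, points are samples in the order of replicates 1 to 3, and bars give the mean and SD (n = 3). Jheh2 is at 7.69 to 8.50 in methylphenidate-fed males and at 6.21 to 6.42 elsewhere, and Kr-h1 is lower in both F1 groups.

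The gene of hormone synthesis, jhamt, had a log2 signal of 2.29, 2.57 and 2.36 with sucrose and 2.42, 2.17 and 2.08 with methylphenidate. These ranges overlapped, and the log2 difference of -0.18 ± 0.10 (SE, 95% interval -0.41 to 0.04) did not pass (limma adjusted p = 0.465). No sample stood apart.

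Of the receptor genes, Met had a signal near the array medians, with a mean of 1.54 over the 12 arrays. Met, a bHLH-PAS transcription factor, had a log2 signal of 1.57, 1.51 and 1.66 with sucrose and 1.40, 1.57 and 1.66 with methylphenidate. The log2 difference was -0.04 ± 0.10 (SE, 95% interval -0.25 to 0.17; limma adjusted p = 0.919). The groups overlapped, and the lowest sample was one with methylphenidate.

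The paralog gce lay at the floor, with a value under 0.5 on 7 of 12 arrays for its brighter probe set and on 10 of 12 for the other. The brighter probe set gave 0.47, 0.50 and 0.56 with sucrose and 0.90, 0.72 and 0.47 with methylphenidate. Its log2 difference was 0.19 ± 0.11 (SE) and that of the other probe set 0.05 ± 0.09 (limma adjusted p = 0.461 and 0.875). A change of gce in either direction would be understated at this level.

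Kr-h1, the main transcriptional target of the receptors, had a log2 signal of 3.51, 3.33 and 4.04 with sucrose and 3.76, 3.83 and 3.93 with methylphenidate. Replicate 3 of the sucrose-fed males was the highest of all 12 samples, and the groups overlapped. The log2 difference was 0.21 ± 0.15 (SE, 95% interval -0.11 to 0.54; limma adjusted p = 0.585). Without that sample it was 0.42 (adjusted p = 0.113), and with the GAPDH covariate -0.12 (adjusted p = 0.904), neither past the threshold.

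The second comparison asked whether sons of methylphenidate-exposed mothers differ from sons of sucrose-exposed parents. None of the 7 genes passed in limma, none had an unadjusted p under 0.05, and for none were the groups separate. For comparison, 0.00533% of all probe sets passed, 8.06% had an unadjusted p under 0.05 and 11.5% had groups that did not overlap. The 95% intervals of the 7 genes lay between 0.774-fold and 1.33-fold.

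For Jheh2 the means were 6.36 ± 0.08 in sons of exposed mothers and 6.39 ± 0.04 in sons of sucrose parents (SD, n = 3 each), a log2 difference of -0.04 ± 0.15 (SE, 95% interval -0.36 to 0.28; limma adjusted p = 0.970). Both groups lay within 6.27 to 6.42. For Jhedup the log2 difference was 0.06 ± 0.12 (SE; limma adjusted p = 0.938), and replicate 1 of the sons of exposed mothers, at 1.96, was the highest of the 6 F1 samples.

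Jhe had a log2 signal of 1.54, 1.98 and 1.72 in sons of sucrose parents and 1.66, 1.48 and 2.03 in sons of exposed mothers. The spread within either group, with an SD of 0.22 and 0.28, was larger than the log2 difference of -0.02 ± 0.15 (SE; limma adjusted p = 0.980). For jhamt the samples gave 2.22, 2.14 and 2.01 against 2.05, 2.19 and 2.27, a log2 difference of 0.05 ± 0.10 (SE; limma adjusted p = 0.945). No sample of either gene stood apart.

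Met had a log2 signal of 1.47, 1.75 and 1.45 in sons of sucrose parents and 1.38, 1.58 and 1.49 in sons of exposed mothers (log2 difference -0.07 ± 0.10 SE; limma adjusted p = 0.894). Kr-h1 had 3.31, 3.03 and 3.14 against 3.03, 3.33 and 2.98 (log2 difference -0.05 ± 0.15 SE; limma adjusted p = 0.966). The largest difference of the 7 in this comparison was that of gce, from 0.33 ± 0.05 to 0.52 ± 0.17 (SD, n = 3 each; log2 difference 0.19 ± 0.11 SE; limma adjusted p = 0.678), with 2 of the 3 samples of sons of exposed mothers above those of sucrose parents and both means close to the floor.

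The effects in the 2 generations were then compared directly, as the F1 effect minus the exposed-male effect. The F1 effect compares sons by their mothers' exposure, and the exposed-male effect compares males by their own. Jheh2 had a lower effect in F1 males by 1.98 on the log2 scale (log2 difference -1.98 ± 0.21 SE, 95% interval -2.43 to -1.53; limma adjusted p = 9.66e-05), and it was the only one of the 7 genes to pass. The share of all probe sets that passed downward was 1.42%, and upward 0.671%. Jhedup differed by -0.48 ± 0.17 (SE, 95% interval -0.85 to -0.12), with an unadjusted p of 0.0135 and a limma adjusted p of 0.182, so that a difference of its effect between generations was not shown. The other 5 genes had differences between -0.26 for Kr-h1 and 0.23 for jhamt (limma adjusted p = 0.487 to 0.998).

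**Figure D2:**
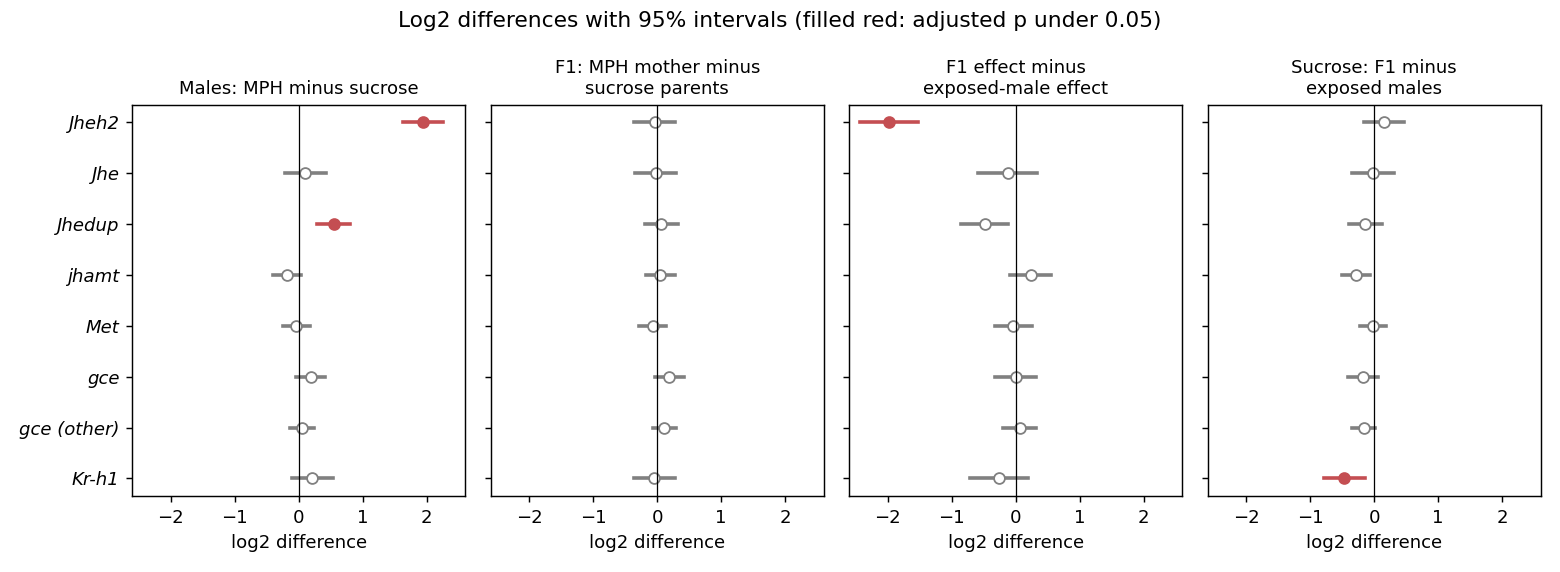
Log2 differences (horizontal axis) with 95% intervals from the limma fit for the 7 genes, with both probe sets of gce, in the 4 comparisons; filled red points passed an adjusted p of 0.05. Jheh2 and Jhedup passed in exposed males, Jheh2 in the difference of effects and Kr-h1 between the sucrose groups.

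The last comparison set sons of sucrose parents against males exposed to sucrose. Any difference between them in age, feeding or treatment is tied to the generation and cannot be told apart from it. Kr-h1 was lower in F1 males, by 0.47 on the log2 scale, and was the only gene of the 7 to pass. On the whole array 14.2% of probe sets were lower and 6.33% higher, so 1 of 7 lower and 0 higher is near the share of all probe sets.

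Kr-h1 had a log2 signal of 3.51, 3.33 and 4.04 in males exposed to sucrose and 3.31, 3.03 and 3.14 in sons of sucrose parents. The groups did not overlap, but the gap between the lowest of the first and the highest of the second was small against their spread. The means were 3.63 ± 0.37 and 3.16 ± 0.15 (SD, n = 3 each), a log2 difference of -0.47 ± 0.15 (SE, 95% interval -0.79 to -0.15; limma adjusted p = 0.0401). Over both treatments the 6 F1 samples lay between 2.98 and 3.33 and the 6 exposed samples between 3.33 and 4.04, with the highest F1 sample just under the lowest exposed one.

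This call depended on single samples. Leaving out replicate 3 of the sucrose-fed males gave -0.26 (limma adjusted p = 0.179). It was also lost without replicate 1 of the same group, replicate 2 of the methylphenidate-fed males or replicate 2 or 3 of the sons of sucrose parents (adjusted p = 0.0572, 0.0503, 0.138 and 0.103). Centring each array on its median, which takes up the low median of replicate 3 of the sons of sucrose parents, gave -0.39 (adjusted p = 0.0867), and quantile normalization gave -0.39 (adjusted p = 0.0993). Of 23 alternatives the call was kept in 14, among them the GAPDH covariate, which gave -0.70 (limma adjusted p = 0.0154). The ranges of the midgut, fat body and accessory gland marker means given above lay higher in sons of sucrose parents than in sucrose-fed males. This did not hold for every fat body marker. The range of the testis marker mean lay lower. The part of these tissue markers in the Kr-h1 difference was not tested.

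The synthetic enzyme jhamt did not pass, with 2.22, 2.14 and 2.01 in sons of sucrose parents against 2.29, 2.57 and 2.36 in males exposed to sucrose. The groups did not overlap, and the log2 difference was -0.28 ± 0.10 (SE, 95% interval -0.51 to -0.06; unadjusted p = 0.0171, limma adjusted p = 0.0735). It passed when the dimmest 50% of probe sets were left out (adjusted p = 0.0456) and without replicate 1 of the methylphenidate-fed males (adjusted p = 0.0464).

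Groups did not overlap in the downward direction for 3 of the 7 genes, Kr-h1, jhamt and gce, as for 21.2% of all probe sets, and in the upward direction for 1, Jheh2, as for 11.6%. For gce the log2 difference was -0.18 ± 0.11 (SE; limma adjusted p = 0.303) with both groups near the floor, and its other probe set gave -0.17 ± 0.09 (SE; limma adjusted p = 0.217). For Jheh2 the difference between the sucrose groups was 0.15 ± 0.15 (SE; limma adjusted p = 0.559), small beside the 1.94 in exposed males. Jhe (-0.02 ± 0.15 SE), Jhedup (-0.14 ± 0.12 SE) and Met (-0.02 ± 0.10 SE) did not pass (limma adjusted p = 0.966, 0.503 and 0.925).

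Ordered by group mean, Jheh2 ran from males exposed to sucrose over both F1 groups to methylphenidate-fed males, and only the last step separated neighbouring groups. For Kr-h1 the order was sons of exposed mothers, sons of sucrose parents, sucrose-fed males and methylphenidate-fed males, and only the step between the generations separated neighbours. For Jhe, jhamt and Met every neighbouring pair of groups overlapped. For Jhedup the methylphenidate-fed males alone were separate from the group next to them. For the brighter probe set of gce, which lay at the floor, the sons of sucrose parents alone were separate. For the other probe set of gce every neighbouring pair overlapped.

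The genes with the most similar profiles were found by the root mean square difference of mean-centred log2 signals over the 12 arrays, among the 11981 other named genes. For Jheh2 they were the cytochrome P450 gene Cyp4e2 (0.14), the diacylglycerol acyltransferase gene Dgat2 (0.16) and the P450 gene Cyp4d14 (0.16), against 0.82 for the spread of Jheh2 about its own mean. Their log2 differences in exposed males were 1.97, 1.94 and 2.11. These 3 genes were chosen for closeness to Jheh2 on these arrays, so likeness in size and replicate order follows in part from the choice. All 3 had their lowest methylphenidate-fed value in replicate 1, as Jheh2 had. The same held for 36.7% of the 447 probe sets higher in exposed males and for 37.4% of all probe sets, and replicate 2 was lowest in 43.4% of the 447.

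For Jhedup the nearest profiles were those of Tspo, the mitochondrial translocator protein (0.12), CG8206 (0.12) and CG15221 (0.13), against a spread of 0.31. For Kr-h1 they were Gar1, a protein of the small nucleolar ribonucleoproteins (0.14), CG5114 (0.15) and the splicing factor Sf3b3 (0.16), against a spread of 0.36. These are descriptions over 12 samples that share their groups.

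**Figure D3:**
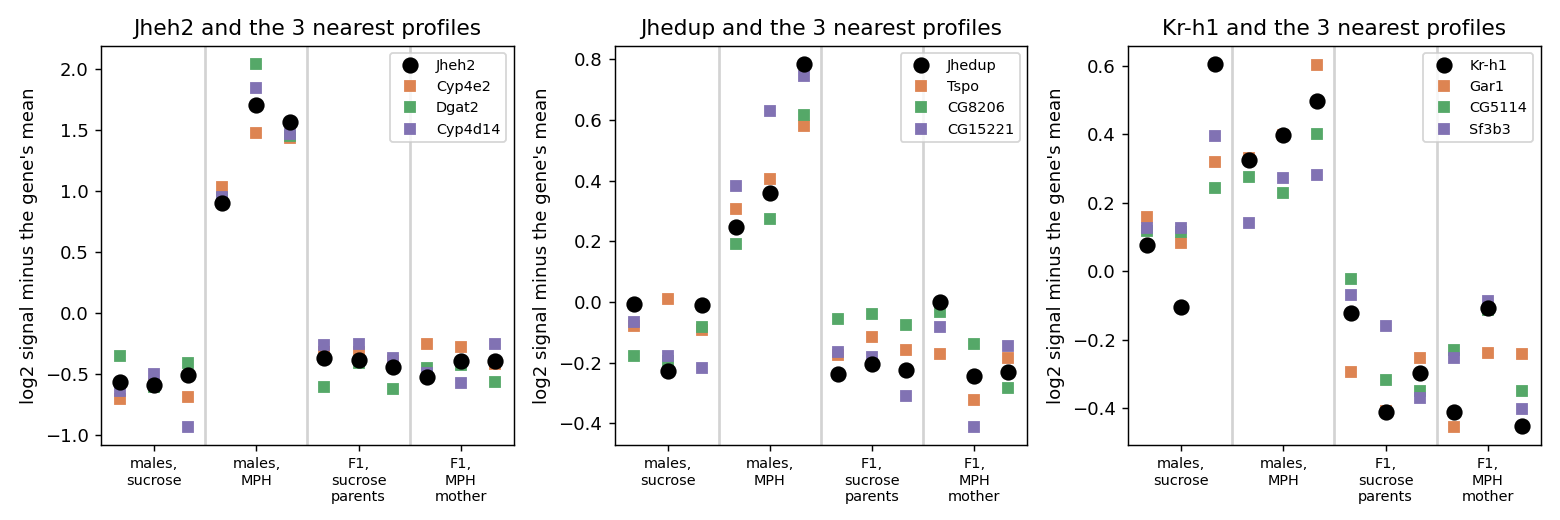
Mean-centred log2 signal (vertical axis) of Jheh2, Jhedup and Kr-h1 (black circles) and of the 3 named genes nearest to each (coloured squares) on the 12 arrays, ordered by group and replicate. Cyp4e2, Dgat2 and Cyp4d14 are high in the 3 methylphenidate-fed samples and lowest of these in replicate 1, like Jheh2.

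The rise of Jheh2 was set beside its chromosomal neighbours. In the RefSeq annotation Jheh2 lies between Jheh1 and Jheh3, and of the 5 protein-coding genes on each side 4 had a named probe set. Jheh1 and Jheh3 themselves were not among them. None of these 4 passed in exposed males, and their log2 differences ran from -0.10 for CG43069 (limma adjusted p = 0.699) to 0.11 for CG18190 (adjusted p = 0.836). For Jhedup 8 neighbours were measured, of which Got1, an aspartate aminotransferase gene, passed narrowly with a log2 difference of 0.35 (limma adjusted p = 0.0482). On the whole array 2.38% of probe sets were higher in exposed males and 0.97% lower.

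Other genes of the pathway were taken from 4 lists, of which 34 genes in all were measured. Among the 7 measured genes of precursor synthesis none passed in limma in any comparison. Of all probe sets, 2.38% were higher and 0.97% lower in exposed males, and 0.00533% passed in F1 males. In the difference of effects 0.671% were higher and 1.42% lower, and between the sucrose groups 6.33% and 14.2%. The precursor genes with the smallest p in exposed males were Pmvk, phosphomevalonate kinase (log2 difference -0.17 ± 0.11 SE), and Fpps, farnesyl diphosphate synthase (0.08 ± 0.08 SE). Their limma adjusted p was 0.559 and 0.747. The list's median log2 difference in exposed males was -0.03, against -0.02 over all probe sets.

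Of the 5 measured allatoregulatory genes, which include the allatostatin AstC and its receptor AstC-R1, none passed in limma in exposed or F1 males. On the whole array 2.38% of probe sets were higher and 0.97% lower in exposed males, and 0.00533% passed in F1 males. Between the sucrose groups SPR, the receptor of sex peptide and of the Mip peptides, fell by 0.47 and the insulin receptor InR by 0.54 on the log2 scale (limma adjusted p = 0.0178 and 0.00215). So 2 of 5 were lower and none higher, where 14.2% of all probe sets were lower and 6.33% higher. With the probe sets of a gene averaged, the SPR difference was -0.26 (adjusted p = 0.0463), and its call was lost in 4 of 23 alternatives. InR was at 3.87, 3.71 and 3.73 in males exposed to sucrose and at 3.46, 3.12 and 3.10 in sons of sucrose parents, without overlap. In F1 males SPR differed by 0.40 ± 0.13 (SE) and AstC-R1, whose signal lay at the floor, by 0.32 ± 0.09 (SE) on the log2 scale, with unadjusted p = 0.00795 and 0.00352 and limma adjusted p = 0.497 and 0.418.

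The list of binding proteins held 13 measured genes, Jhbp genes with the binding domain of the takeout family and CG3776, which encodes a protein that binds the esterase. In exposed males Jhbp14 fell, from 6.91, 7.04 and 6.94 to 6.56, 6.44 and 6.61 (log2 difference -0.42 ± 0.08 SE, limma adjusted p = 0.00645). So 1 of 13 was lower and none higher past the threshold, where 0.97% of all probe sets were lower and 2.38% higher. With the GAPDH covariate the adjusted p of Jhbp14 was 0.0954. Jhbp12 had a lower effect in F1 males than in exposed males (log2 difference -0.90 ± 0.21 SE; limma adjusted p = 0.0439), while it passed in neither generation alone (0.50 and -0.40, adjusted p = 0.0923 and 0.556). In the difference of effects 1 of 13 thus passed downward and none upward, where 1.42% of all probe sets passed downward and 0.671% upward. The call of Jhbp12 was lost in 9 of 22 alternatives, 8 of which each left out 1 array, with limma adjusted p up to 0.199. Jhbp11 and Jhbp7 were higher in sons of sucrose parents than in males exposed to sucrose (log2 differences 0.55 and 0.33, limma adjusted p = 0.00166 and 0.0183). That is 2 of 13 higher and none lower, where 6.33% of all probe sets were higher and 14.2% lower.

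Of 9 measured receptor partners and response genes, 1 rose in exposed males and none fell, where 2.38% of all probe sets were higher and 0.97% lower. This was JhI-26, named as a gene that juvenile hormone induces in Drosophila cells, with 5.02, 5.15 and 5.21 under sucrose and 5.73, 5.78 and 5.82 under methylphenidate (log2 difference 0.65 ± 0.08 SE; limma adjusted p = 0.000147). In sons of sucrose parents it was at 5.18, 5.26 and 5.26 and in sons of exposed mothers at 5.07, 4.87 and 5.05, a log2 difference of -0.24 ± 0.08 (SE; unadjusted p = 0.00821, limma adjusted p = 0.497). For JhI-26 the F1 effect minus the exposed-male effect was -0.89 ± 0.11 (SE, limma adjusted p = 0.00036). In that comparison 1 of 9 was lower and none higher, where 1.42% of all probe sets were lower and 0.671% higher.

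JhI-21 of the same list, an amino acid transporter, did not pass in exposed males (log2 difference 0.27 ± 0.10 SE, limma adjusted p = 0.175). It was higher in sons of sucrose parents than in males exposed to sucrose (0.63 ± 0.10 SE, limma adjusted p = 0.000979). Nup358, a nucleoporin with a part in the nuclear import of Met, fell by 0.30 between the sucrose groups (limma adjusted p = 0.0400), a call lost in 10 of 23 alternatives. In that comparison 1 of 9 was thus higher and 1 lower, where 6.33% of all probe sets were higher and 14.2% lower. The receptor coactivator tai and usp, the partner of the ecdysone receptor, did not pass in any of the 4 comparisons. The list's median log2 difference was 0.10 in exposed males and 0.09 in F1 males, against -0.02 and 0.03 over all probe sets.

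**Figure D4:**
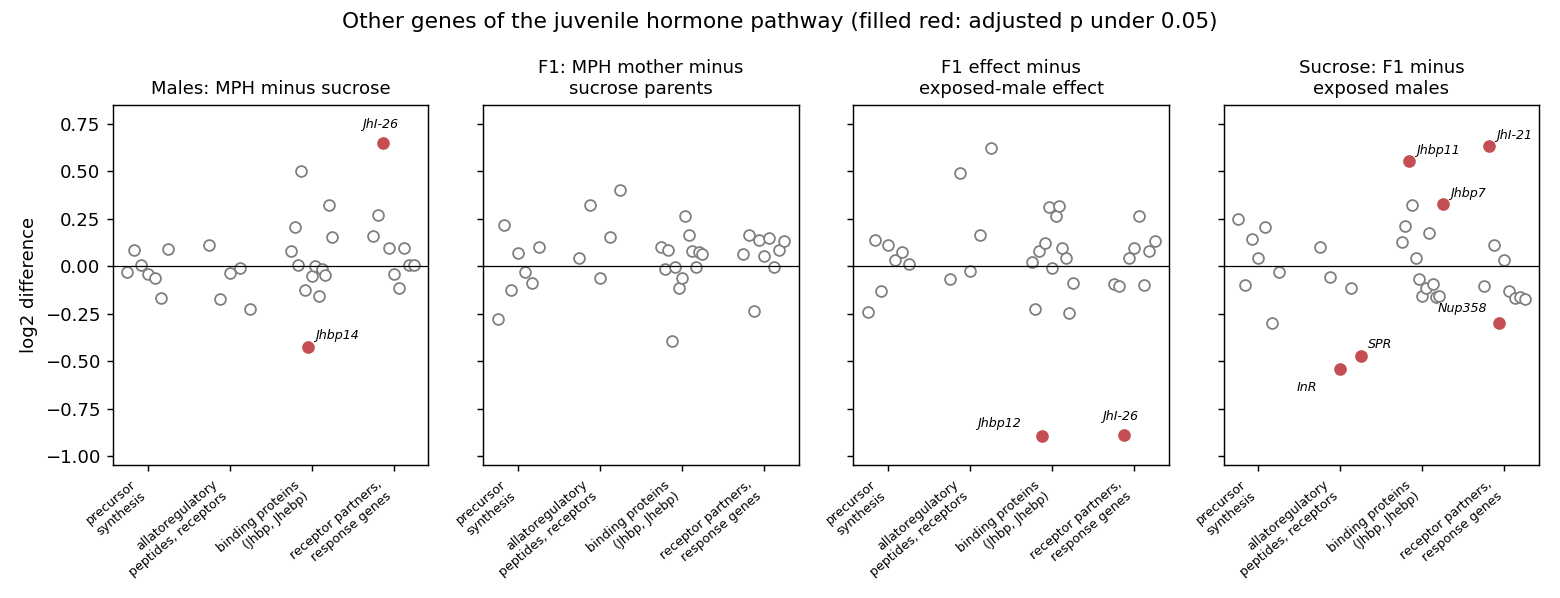
Log2 differences (vertical axis) of the 34 measured genes of the 4 pathway lists in the 4 comparisons, 1 point per gene; filled red points passed an adjusted p of 0.05 and are named. In exposed males JhI-26 (0.65) and Jhbp14 (-0.42) passed, and no gene passed in F1 males.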

How the data were processed

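The authors deposited log2 signals for each probe set of each array, with RMA, affy and limma named in the submitters' processing notes; neither versions nor settings are stated. The log base was tested on the spiked bacterial controls: from BioB to Cre the signal rose by 5.97, where the nominal concentrations give a log2 rise of 6.06. After removal of 183 control probe sets from 18952, the fit covered all 18769 others. The platform annotation pairs 13647 of them with 1 gene, 402 with several and 4720 with none, and 13544 symbols were brought up to date with the RefSeq table of assembly Release 6 plus ISO1 MT, used for names and gene order only.

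One linear model with a mean for each of the 4 groups was fitted to the 12 arrays (limma 3.58.1, R 4.3.3, eBayes defaults), and contrasts were tested two-sided with Benjamini-Hochberg adjustment over the 18769 probe sets at 0.05. The model was tested on simulated data. The genes and lists were chosen with earlier results of these data known. All measured genes of the set are named. From each pathway list the genes past the threshold in any comparison are named, and otherwise the 2 with the smallest p in exposed males. For each gene of the set that passed, the 3 nearest profiles are named. AstC, tai, usp, JhI-21 in exposed males, SPR, AstC-R1 and JhI-26 in F1 males the neighbours CG43069, CG18190 and Got1 and the single tissue markers were chosen after their values were seen. The 4 lists held 46 names, of which 12 matched no single-gene probe set and were not analysed here. JhI-1 was matched as RNaseZ. Replicate numbers gave no clear pairing of the samples: deviations of same-numbered samples from their group means correlated at -0.174 to 0.133. Between methylphenidate-fed males and sons of exposed mothers each replicate correlated best with its own number, though weakly (0.133, 0.0335 and 0.0954). Most other same-numbered pairs did not. Alternatives changed the arrays in the fit (only the compared groups, or 1 array fewer), the filter (the dimmest 30% or 50% removed), the scaling (quantile or median), the variance model (trend and robust, or array weights), the probe sets of a gene (1 or their mean) or the terms (a replicate block, or the GAPDH 3′ excess). Figures used matplotlib 3.10.9 under Python 3.11.15.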

Additional observations from a re-analysis of the deposited data

Results flagged for a closer look

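Jheh2 was flagged because its difference by the mother's exposure in F1 males was unlike its difference by the males' own exposure. In a test of the difference itself, the F1 effect minus the exposed-male effect was -1.98 on the log2 scale (SE 0.21, n = 3 in each of 4 groups, limma adjusted p = 9.66e-05). All 3 methylphenidate-fed samples were above every sucrose-fed sample, while the 3 samples of sons of exposed mothers overlapped those of sons of sucrose parents. The F1 males' own treatment is not given by the labels.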

How the results depend on the processing

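Over 23 alternatives Jheh2 passed in every one in exposed males (log2 differences 1.79 to 2.19), and over 22 in every one in the difference of effects (-2.23 to -1.82). None of the reported results that passed changed direction. Of the 7 genes, the number that passed in exposed males fell from 2 to 1 with only the groups compared and with the GAPDH covariate, and was 1 to 2 when single arrays were left out, Jhedup being the gene lost. Between the sucrose groups it fell from 1 to 0 with only the groups compared, with the replicate block, with quantile normalization and with median centring, and rose to 2 without the dimmest 50% of probe sets, which left 6 genes. It was 0 to 2 when single arrays were left out. With the replicate number as a block Kr-h1 had an adjusted p of 0.053 (limma), and the calls of Jheh2 (4.33e-06) and Jhedup (0.0297) in exposed males were kept. No label says that the numbers pair the samples. The GAPDH covariate left 1 of 34 pathway genes in exposed males and 1 in the difference of effects, against 2 in each; without single arrays the latter was 1 to 3. Of the pathway calls between the sucrose groups, Nup358 was lost in 10, SPR in 4 and Jhbp7 in 4 of 23 alternatives. The number of all probe sets that passed was 629 in exposed males, with a range of 203 to 1009. A fit of only the groups compared was not run for the difference of effects, which needs all groups. gce lay at the floor, so its signal limits what can be seen of it.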
